A study of Mus musculus with 6 samples.

Results

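C2C12 cells that had spent 48 hours in differentiation medium were compared between 1 library of cells carrying a short hairpin against Kap1 and 1 library of cells carrying the control hairpin. These are 2 of the 6 RNA libraries of the series, taken by their labels, and every gene with enough counts was described, 16472 of the 37991 in the count tables. C2C12 is an immortalised mouse myoblast line, labelled here as strain C3H, that leaves the cell cycle and fuses into multinucleated myotubes when rich serum is replaced by low horse serum with insulin, transferrin and selenium. The control cells are labelled LV sh-Luc (a hairpin named for luciferase) and the knockdown cells LV sh-Kap1, LV being the usual short form of lentiviral vector. The libraries from differentiating cells are called MT here. The other 4 libraries came from the same line while it proliferated (MB), 2 with LV sh-Luc and 2 with LV sh-Kap1, and they served as the yardstick of spread. Polyadenylated RNA from the cytoplasm was sequenced. The labels do not say whether the MB replicates were separate cultures, how many hairpins were used, or how far the MT cells had fused, so any p-value reflects the spread of these libraries alone, and that spread could be technical.

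KAP1, the protein encoded by Trim28, is a scaffold without DNA binding of its own. It is best known for joining KRAB zinc finger proteins to the histone methyltransferase SETDB1, to HP1 and to histone deacetylases, which silences genes and transposons. In myoblasts it is also known to sit with MyoD and Mef2 at muscle genes together with activating and repressing cofactors. Muscle differentiation runs through the bHLH factors, with Myf5 and MyoD marking the committed myoblast and myogenin the cell that has started to differentiate. The Mef2 factors join them at the genes of the contractile apparatus, and the inhibitor p21, cyclin D3 and the Rb protein hold the cell out of the cycle.

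The MT control library held 49839994 counts on genes and the MT knockdown library 36247530, the most and the fewest of the 6 libraries. Levels are given as CPM, counts scaled to library size by the TMM method, and 3 counts correspond to 0.0619 CPM in the MT control library and 0.0775 CPM in the MT knockdown library. With 1 library in each MT group the difference has no replicate check of its own, and a fit can only borrow its spread from the MB replicates. A gene was called lower or higher only if its levels differed by at least 2-fold and by more than replicates 1 and 2 of the MB control and of the MB knockdown differed in the same gene. Intervals of ratios are exact 95% intervals and cover counting error only. In bulk RNA, fewer cells of a kind and less RNA per cell cannot be told apart.

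Trim28 stood at 394 CPM in the MT control library and at 114 CPM in the MT knockdown library. In the MB libraries it stood at 596 and 428 CPM in the controls and at 150 and 102 CPM in the knockdowns, so every knockdown library lay below every control library. The MT ratio of control to knockdown was 3.44 (95% counting interval 3.33 to 3.55), a log2 difference of -1.78, against -1.99 and -2.07 in the MB pairs of equal replicate number.

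Genes of the contractile apparatus, of fusion and of the calcium store were far lower in the knockdown library than in the control library, while genes higher in it were fewer and mostly differed less. In all, 1162 genes were called lower in the knockdown library (7.05% of those described) and 748 were called higher (4.54%). Genes called lower by at least 4-fold numbered 527, against 174 called higher by as much. At 16-fold the counts were 174 and 17, and at 64-fold 45 and 1. The median log2 difference over all genes was 0.02. Under scaling to total counts, which moved that median to 0.15, 999 genes were called lower and 986 higher, so that 49.7% of the calls were higher in place of 39.2%.

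**Figure D1:**
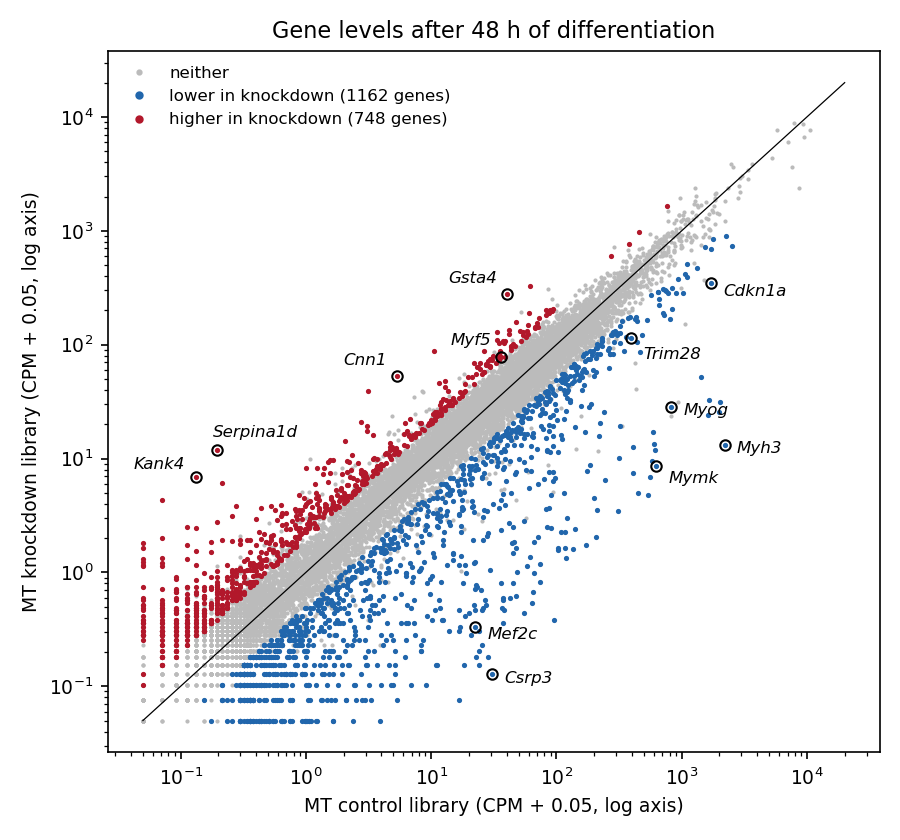
Levels of each described gene in the MT control library (x axis) and in the MT knockdown library (y axis), in CPM plus 0.05 on log axes, with genes called lower in blue, genes called higher in red and all others in grey. The 1162 lower genes reach far below the diagonal line of equal levels, down to Csrp3 and Mef2c, and the 748 higher genes stay closer to it.

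Of the 16472 genes, 9685 (58.8%) differed no more between the MT libraries than in the larger of their own 2 MB replicate differences, and 35.9% no more than in either of them. The median absolute log2 difference was 0.33 between the MT libraries, against 0.30 between the MB control replicates and 0.31 between the MB knockdown replicates. At least a 2-fold difference was seen for 14.9% of genes between the MT libraries and for 12.2% and 14.2% between the MB replicates. Large differences were more common between the MT libraries, as the curves of difference size show. Both MT libraries and replicate 1 of both MB groups carry a mark in their deposited file names that replicate 2 lacks, so the MT comparison lies within the mark and the yardstick runs across it. The labels do not explain the mark. An edgeR quasi-likelihood fit of all 6 libraries, which borrows its spread from the MB replicates, put 0 genes past an adjusted p of 0.05 for the MT comparison (smallest adjusted p = 0.457). DESeq2 put 368 genes past its threshold, 308 of them lower, and edgeR with the replicate number as a block put 3344 past it, 1846 of them lower. The block coincides with the file mark, both MT libraries being placed with replicate 1, so the count of genes past the threshold depends on whether the mark is in the fit, and the mark and the replicate number cannot be told apart.

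**Figure D2:**
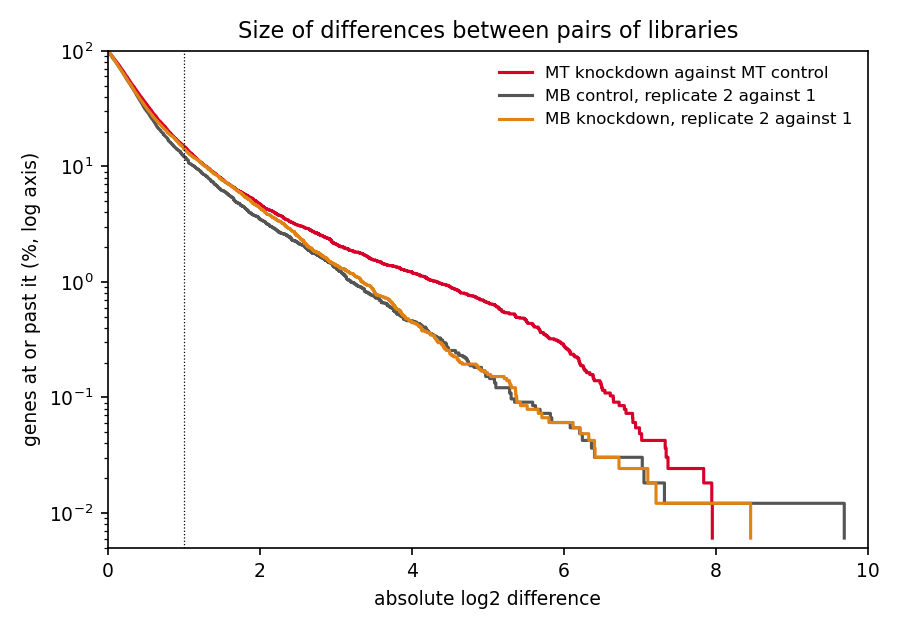
Share of the 16472 genes (y axis, percent, log scale) whose absolute log2 difference reached the value on the x axis, for MT knockdown against control and for replicate 2 against replicate 1 of each MB group, with the dotted line at 2-fold. The 3 curves run together up to about the 2-fold line, where they hold 14.9%, 12.2% and 14.2% of genes, and the MT curve lies above the others at larger differences.

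Most genes called lower were higher in differentiated control cells than in any myoblast library. In 1058 of the 1162 (91.0%) the MT control library lay above the highest MB library, against 33.9% of all genes described. The MT knockdown library lay within the range of the 4 MB libraries for 495 of them (42.6%, against 35.03% of all genes), above it for 430 (37.0%, against 33.6%) and below it for 237 (20.4%, against 31.4%). Together they held 8.37% of the counts of the MT control library and 2.39% of those of the MT knockdown library. Their direction in proliferating cells was close to the background, since 33.3% of them were also lower in both MB pairs, against 31.6% of all genes. The genes called higher were different in this respect: 63.5% of them were also higher in both MB pairs, against 30.7% of all genes, and 109 of the 748 (14.6%) were at least 2-fold higher in both pairs, against 1.55% of all genes. A call of lower asks for a control level at least 2-fold above the knockdown level, so the shares against the MB range are set in part by the choice of genes. For genes called higher the mirror share, MT knockdown library above the highest MB library, was 61.2%, against 33.6% of all genes. No test was made of these shares.

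Of the 26 myogenic regulators described, 10 were called lower and 2 higher, with a median log2 difference of -0.78. Over all genes 7.05% were called lower and 4.54% higher, the background for this list and every later one. Myog (myogenin) stood at 818 CPM in the MT control library and 28.2 CPM in the MT knockdown library. The MB controls held 1.28 and 33.8 CPM of it and the MB knockdowns 0.676 and 14.3 CPM, so the MT knockdown library lay inside the MB range. The ratio of control to knockdown was 29.0 (27.3 to 30.8). The log2 difference of -4.85 only just passed the largest MB replicate difference, 4.67, and Myog loses its call if the range of all 4 MB libraries is the yardstick, an alternative chosen after seeing the data. Myod1, which encodes MyoD, stood at 239 and 25.7 CPM (ratio 9.30, interval 8.72 to 9.94), and the MB libraries ran from 3.44 to 31.8 CPM. It too was higher in the MT control library than in any other.

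Mef2c, a Mef2 factor that acts beside the bHLH factors, was at 22.3 CPM in the MT control library and at 0.284 CPM, 11 counts, in the knockdown library (ratio 78.4, interval 43.7 to 157.6), with 0.121 to 1.81 CPM in the MB libraries. Mef2a was at 481 and 122 CPM and Mef2d at 210 and 83.0 CPM. Both therefore kept a level near that of myoblasts, which held 52.5 to 120 CPM of Mef2a and 81.4 to 106 CPM of Mef2d. Rbm24, an RNA-binding protein of muscle splicing, was at 48.7 and 0.956 CPM, and loses its call with a smaller prior count. Tead4, a TEAD factor of differentiating myoblasts, was at 45.6 and 1.81 CPM, below all 4 MB libraries (4.82 to 10.3 CPM) in the knockdown library, and Tead1 was at 82.6 and 30.0 CPM, again below the MB range (73.9 to 106 CPM). Klf5, a zinc finger factor of the same period, was at 21.7 and 1.86 CPM.

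The 2 regulators called higher were Myf5 and Eya1. Myf5, the bHLH factor of undifferentiated myoblasts, was at 35.8 CPM in the MT control library and 77.1 CPM in the MT knockdown library, where MB libraries held 48.9 to 92.8 CPM. Eya1, a transcriptional coactivator, was at 10.7 and 25.6 CPM, and MB libraries held 16.3 to 30.0 CPM. In both genes it was thus the control library that stood outside the myoblast range. The E proteins Tcf3 (124 and 132 CPM) and Tcf12 (187 and 140 CPM), the dimer partners of MyoD, were not called. Pax7 was near the floor at 15 and 10 counts. Of 23 genes of myoblasts and reserve cells, 1 was called lower (Bhlhe40, at 230 and 108 CPM) and 1 higher (Pax3, at 6.40 and 12.9 CPM). Each is 4.35% of the list, against 7.05% and 4.54% of all genes. Bhlhe40 is not called under scaling to total counts and Pax3 is not called under DESeq2's size factors. Id3, an inhibitor of the bHLH factors, was at 78.0 and 137 CPM and was not called.

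**Figure D3:**
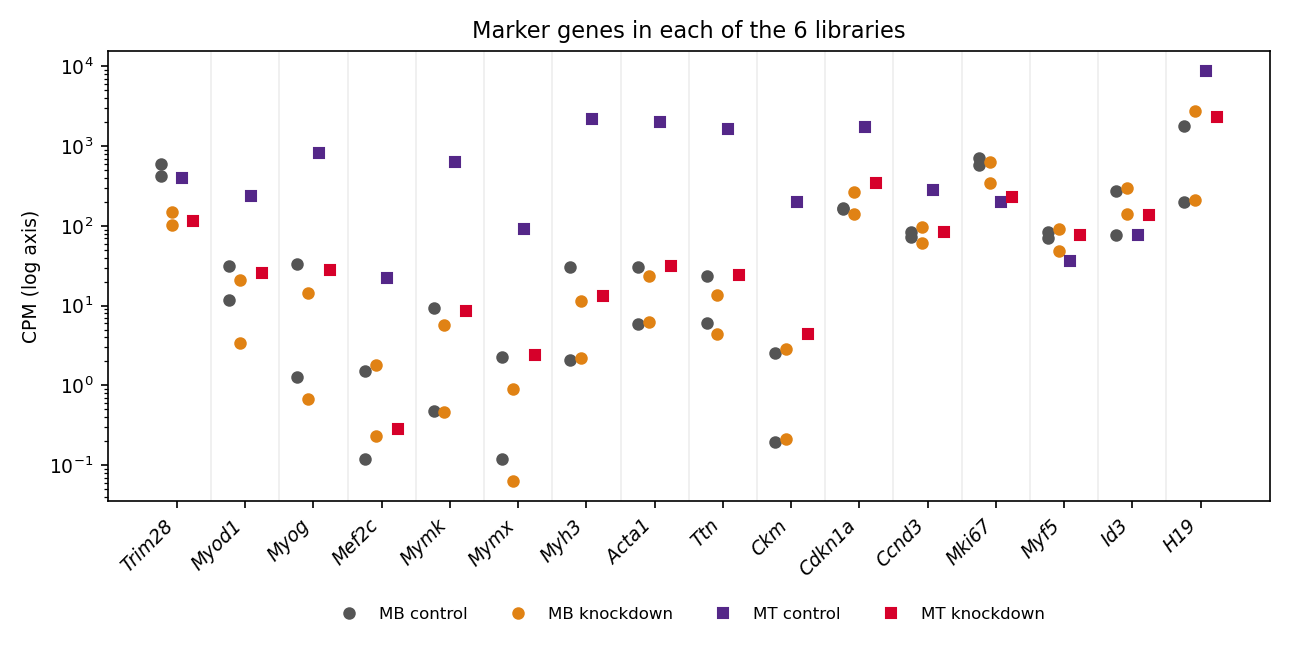
Level of 16 genes in each of the 6 libraries, in CPM on a log axis, with circles for MB libraries and squares for MT libraries. For Myog, Mymk, Myh3, Acta1 and Ttn the MT control square stands alone near the top and the MT knockdown square sits beside the higher MB circles, while Mki67 is low in both MT libraries.

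The 15 genes with the lowest log2 differences were Myh8, Csrp3, Fgfbp1, Myh3, Actn2, Dhrs7c, Myoz2, Apobec2, Myh13, Myh4, Ablim3, Smpx, Mybph, Cav3 and Myh1, most of them genes of striated muscle. Muscle genes of this kind are classic targets of the myogenic bHLH factors, which bind E-boxes, and of the Mef2 factors. Of the 13 with a promoter that was searched, 5 hold the E-box CAGCTG and 4 the Mef2 consensus. Promoters of 7 genes are shown: 6 chosen because they hold such a match, and Myh3, the embryonic myosin gene, as one without. Apobec2, not shown, also holds CAGCTG, and Csrp3, Fgfbp1, Actn2, Myh13 and Smpx, like Myh3, hold neither. The windows run from 250 bases before to 50 after the annotated start, were taken from RefSeq by gene symbol, and carry GRCm38.p6 coordinates, while the counts were made on mm9. They are Myh8 (chr11:67276874-67277173, plus strand), Myh4 (chr11:67237562-67237861, plus strand), Myh1 (chr11:67199852-67200151, plus strand), Myoz2 (chr3:123034938-123035237, minus strand), Mybph (chr1:134193198-134193497, plus strand), Cav3 (chr6:112459255-112459554, plus strand) and Myh3 (chr11:67078050-67078349, plus strand). Capitals mark the E-box CAGCTG, the E-box CAGGTG on either strand, and the Mef2 consensus.
Myh8: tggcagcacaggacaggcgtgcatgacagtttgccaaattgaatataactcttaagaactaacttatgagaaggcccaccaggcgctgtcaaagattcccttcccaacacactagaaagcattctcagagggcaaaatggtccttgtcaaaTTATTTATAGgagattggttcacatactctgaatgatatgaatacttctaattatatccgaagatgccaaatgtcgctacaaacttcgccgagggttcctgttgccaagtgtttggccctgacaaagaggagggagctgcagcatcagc
Myh4: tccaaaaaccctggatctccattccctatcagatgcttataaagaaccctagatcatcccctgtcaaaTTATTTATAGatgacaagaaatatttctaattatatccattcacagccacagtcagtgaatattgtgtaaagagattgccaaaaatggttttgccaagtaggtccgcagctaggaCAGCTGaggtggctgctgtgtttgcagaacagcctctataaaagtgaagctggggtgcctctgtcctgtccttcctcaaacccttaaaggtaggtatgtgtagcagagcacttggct
Myh1: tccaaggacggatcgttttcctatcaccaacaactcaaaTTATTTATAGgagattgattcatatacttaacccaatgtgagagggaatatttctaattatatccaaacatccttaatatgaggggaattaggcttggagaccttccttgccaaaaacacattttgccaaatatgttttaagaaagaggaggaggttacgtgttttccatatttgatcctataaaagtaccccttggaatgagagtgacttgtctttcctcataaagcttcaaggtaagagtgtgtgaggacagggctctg
Myoz2: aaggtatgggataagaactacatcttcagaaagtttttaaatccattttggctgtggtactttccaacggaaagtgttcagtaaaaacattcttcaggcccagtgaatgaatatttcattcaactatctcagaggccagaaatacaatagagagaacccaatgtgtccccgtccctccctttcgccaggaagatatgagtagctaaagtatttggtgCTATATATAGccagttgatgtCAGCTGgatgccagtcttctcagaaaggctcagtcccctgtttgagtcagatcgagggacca
Mybph: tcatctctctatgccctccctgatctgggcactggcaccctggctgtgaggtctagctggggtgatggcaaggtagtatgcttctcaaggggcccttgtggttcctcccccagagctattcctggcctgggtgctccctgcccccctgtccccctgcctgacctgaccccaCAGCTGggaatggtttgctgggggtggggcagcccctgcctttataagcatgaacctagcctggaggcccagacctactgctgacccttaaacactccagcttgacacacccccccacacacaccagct
Cav3: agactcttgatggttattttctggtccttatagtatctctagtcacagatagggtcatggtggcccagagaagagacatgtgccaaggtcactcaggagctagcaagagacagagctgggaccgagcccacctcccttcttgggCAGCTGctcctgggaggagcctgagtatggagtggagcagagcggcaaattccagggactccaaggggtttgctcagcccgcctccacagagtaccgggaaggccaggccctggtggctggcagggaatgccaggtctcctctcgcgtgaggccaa
Myh3: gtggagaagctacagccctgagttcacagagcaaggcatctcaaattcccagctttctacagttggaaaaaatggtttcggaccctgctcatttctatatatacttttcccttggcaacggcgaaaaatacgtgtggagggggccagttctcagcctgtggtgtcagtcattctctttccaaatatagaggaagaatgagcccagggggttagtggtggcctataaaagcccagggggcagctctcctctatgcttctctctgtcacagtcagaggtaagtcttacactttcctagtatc
In the neighbouring myosin genes Myh8, Myh4 and Myh1 the Mef2 match is the same 10 letters, TTATTTATAG, starting 99, 182 and 211 bases before the start. Myoz2 has a Mef2 match at 33 bases and CAGCTG at 12 bases before its start. CAGCTG lies 67, 79 and 106 bases before the start of Myh4, Mybph and Cav3.

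Such matches were more common in promoters of the lower genes. A gene with several promoters counted if any of them held a match. CAGCTG occurred in 18.6% of the 11024 described genes with a promoter that was searched, in 30.6% of 744 genes called lower, in 38.5% of 135 called lower by at least 16-fold and in 15.9% of 459 called higher. For the Mef2 consensus the shares were 2.25%, 6.85%, 14.8% and 3.05%. CAGGTG, a bHLH E-box that repressors such as Zeb1 and Snai2 also use, was found in 20.6%, 28.0%, 26.7% and 23.1%. Over the 27025 genes with a promoter that was searched, described or not, the shares were 18.3% for CAGCTG, 22.6% for CAGGTG and 3.70% for the Mef2 consensus. The general E-box form CANNTG, which includes both others, was found for 67.9% of the described genes and for 84.4% of those lower by at least 16-fold. Both strands were searched. A match is a run of letters and not a site shown to be bound, and no test was made.

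**Figure D4:**
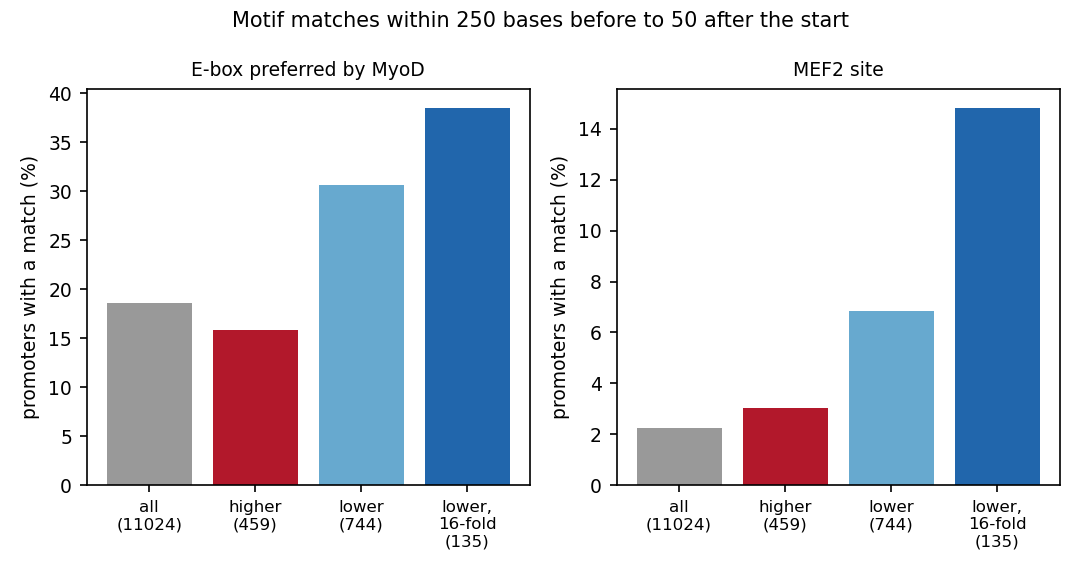
Share of genes (y axis, percent, from 0) with at least 1 match in any of their promoters to the E-box preferred by MyoD (CAGCTG, left) or to the Mef2 consensus (right). Bars are for all described genes, genes called higher, genes called lower and genes called lower by at least 16-fold, with the number of genes with a searched promoter under each bar. The E-box share goes from 18.6% over all genes to 38.5% in the last group and the Mef2 share from 2.25% to 14.8%.

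Both genes of the fusion machinery were called lower. Mymk (myomaker) and Mymx (myomixer) encode the small membrane proteins that merge myoblast membranes. Mymk was at 627 CPM in the MT control library and at 8.50 CPM in the MT knockdown library (ratio 73.8, interval 66.2 to 82.5), and Mymx at 90.5 and 2.40 CPM (ratio 37.7, interval 30.7 to 46.8). MB libraries held 0.465 to 9.29 CPM of Mymk and 0.0634 to 2.30 CPM of Mymx. Of 35 genes of adhesion and of helpers of fusion, 7 were called lower and 0 higher. Among them were Itgb1bp2 (melusin, an integrin-binding muscle protein, 103 and 1.58 CPM), Nmrk2 (65.1 and 0.620 CPM), Itga7 (the laminin-binding integrin of muscle, 713 and 190 CPM) and Ncam1 (425 and 170 CPM). Itga7 loses its call when the range of the 4 MB libraries is the yardstick. Adam12, a metalloprotease of fusing myoblasts, stood at 101 and 21.9 CPM, below every MB library (42.8 to 80.1 CPM) in the knockdown. Itgb1, the common integrin partner, at 868 and 778 CPM, was not called.

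The thick filament had the lowest median of the 40 lists. Of 19 genes of the thick filament, 17 were called lower and 0 higher, with a median log2 difference of -6.30, and their levels summed to 6856 CPM in the MT control library and to 185 CPM in the knockdown library. The list also holds the methyltransferase genes Smyd1 and Smyd2, and Smyd2 alone was at 75.5 and 85.7 CPM. Myh3, the embryonic myosin heavy chain that myotubes make first, was at 2197 and 13.2 CPM (ratio 166, interval 152 to 182), where MB libraries held 2.10 to 30.6 CPM. The perinatal chain Myh8 was at 94.8 and 0.336 CPM (13 counts; ratio 282, interval 165 to 530). The slow chain Myh7, at 173 and 1.68 CPM, and the fast chains Myh1, at 207 and 2.01 CPM, Myh2, at 23.95 and 0.258 CPM, and Myh4, at 24.2 and 0.155 CPM, differed by similar factors. Levels of near-identical myosin genes are uncertain, since reads could be split between them. The light chain Mylpf was at 1667 and 32.6 CPM, and Unc45b, the chaperone that folds myosin, at 135 and 1.55 CPM. Myl1, at 822 and 23.7 CPM, differed by -5.11 on the log2 scale and was not called because its MB control replicates stood at 0.822 and 34.3 CPM.

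In the thin filament 14 of 20 genes were called lower and 0 higher, with a median of -5.02. The striated muscle actins Acta1, at 2039 and 31.6 CPM, and Actc1, at 1996 and 25.7 CPM, differed by ratios of 64.5 (61.0 to 68.3) and 77.8 (73.0 to 82.9). The troponins Tnnt2 (1415 and 52.0 CPM), Tnnt3 (585 and 17.0 CPM), Tnni1 (583 and 9.50 CPM) and Tnni2 (309 and 3.38 CPM) were lower, as was nebulin, Neb, the ruler of the thin filament, at 412 and 7.36 CPM. Tropomyosins also serve the cytoskeleton of other cells and differed less. Tpm2 was at 2499 and 728 CPM and was called, and Tpm1, at 1748 and 1527 CPM, and Tpm3, at 348 and 414 CPM, were not.

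Of 36 genes of the Z disc and M band, 23 were called lower and 0 higher, with a median of -2.23. Ttn, which encodes the titin spring, was at 1633 and 23.99 CPM (ratio 68.1, interval 63.8 to 72.7). Csrp3, the muscle LIM protein, was at 30.5 CPM in the MT control library and at 3 counts in the knockdown library (ratio 394, interval 135 to 1913). Actn2, the alpha-actinin of the Z disc, was at 28.5 CPM and 5 counts, and Myoz2, which ties calcineurin to it, at 22.8 CPM and 5 counts. Proteins shared with other cells differed less: Flnc (filamin C) was at 1021 and 282 CPM, and Fhl1 (273 and 271 CPM) and Pdlim7 (218 and 219 CPM) were level. Des (desmin), which myoblasts already make, was at 1244 and 517 CPM. Its MB libraries ran from 303 to 751 CPM and it was not called.

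**Figure D5:**
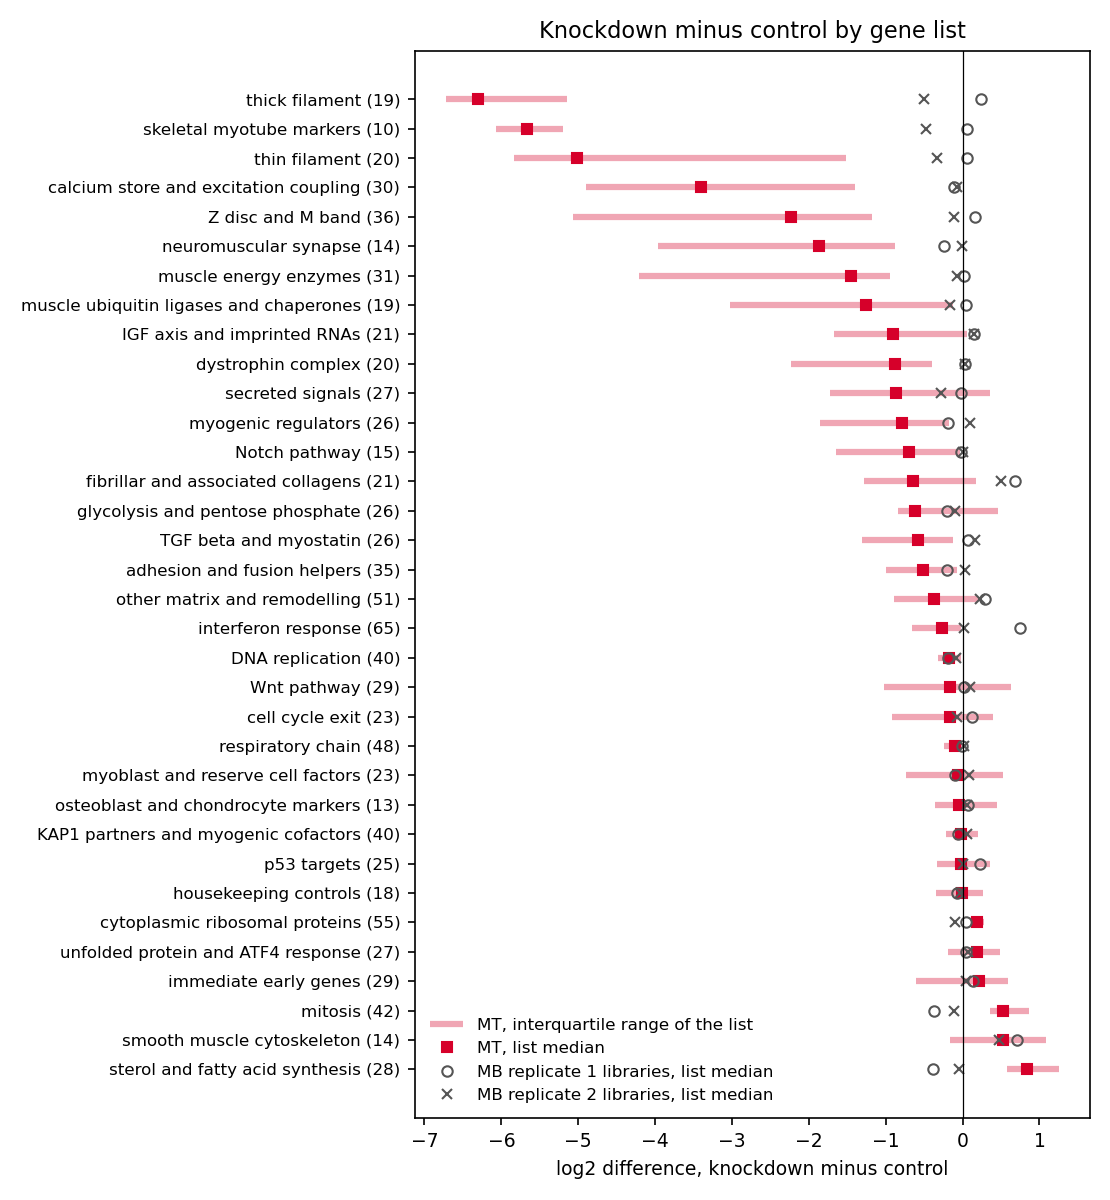
Median log2 difference, knockdown minus control, of each gene list with at least 10 described genes (number in brackets), in the MT libraries (red squares, with bars over the interquartile range) and in the MB pairs of replicate 1 (circles) and replicate 2 (crosses). The thick filament, thin filament, Z disc and calcium lists reach from -6.30 to -2.23 in MT. Their MB medians lie between -0.50 and 0.24. Mitosis (0.52) and sterol synthesis (0.83) lie on the other side in MT.

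Genes of the calcium store and of excitation were also low in the knockdown library, with 21 of 30 called lower, 0 higher and a median of -3.41. Ryr1, the calcium release channel, was at 317 and 10.1 CPM, Cacna1s, the voltage sensor that opens it, at 116 and 1.60 CPM, and the pump Atp2a1 at 608 and 11.9 CPM. The store protein Casq2 was at 451 and 4.91 CPM and the caveolin of muscle, Cav3, at 37.7 and 0.310 CPM. The pump of most cells, Atp2a2, was at 663 and 223 CPM. At the neuromuscular synapse 6 of 14 genes were called lower and 0 higher. Chrna1, a subunit of the acetylcholine receptor, was at 725 and 180 CPM, above the MB range of 47.2 to 134 CPM in both. Musk, the receptor kinase that clusters it, was at 54.7 and 16.5 CPM and Dok7, which activates Musk, at 47.8 and 1.58 CPM. Chrng (331 and 19.3 CPM) and Chrnd (144 and 12.1 CPM) were not called, because their MB replicates lay far apart. Of 20 genes of the dystrophin complex, which links the cytoskeleton to the matrix, 6 were called lower, among them Dag1 (814 and 169 CPM), Sgca (54.9 and 9.27 CPM) and Lama2 (115 and 39.6 CPM); Lama2 is not called under scaling to total counts.

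Few muscle genes of the knockdown library lay below their myoblast levels. Of the 19 thick filament, 36 Z disc and 30 calcium genes, 0, 3 and 5 lay below all 4 MB libraries in the knockdown, against 31.4% of all genes, and 3, 15 and 8 lay above all 4, against 33.6% of all genes. Some members stood near the floor in MB, such as Myh13 (0.0242 to 0.177 CPM), Csrp3 (0 to 0.429 CPM) and Cav3 (0.0422 to 0.429 CPM). A level below all 4 MB libraries could hardly be seen for them, so the small counts below MB are set in part by the floor. In the control library 18, 32 and 27 lay above all 4, against 33.9% of all genes. The MB replicates themselves differed in these genes: the thick filament list had a median log2 difference of 3.66 between replicate 2 and replicate 1 in the MB controls and of 2.63 in the MB knockdowns, with summed levels of 120 and 225 CPM in the controls and 126 and 182 CPM in the knockdowns. The MT knockdown library, at 185 CPM, lay among them, but much of each of these sums came from the methyltransferase gene Smyd2. Smyd2 alone held 108 and 82.8 CPM in the MB controls, 114 and 94.6 CPM in the MB knockdowns and 85.7 CPM in the MT knockdown library. The sums therefore do not show that the filament genes themselves stood at like levels. The 10 markers of skeletal myotubes were all called lower, with a sum of 11100.0 CPM in the MT control library and of 352 CPM in the knockdown library. The 4 MB libraries held 66.4 to 296 CPM, and 6 of the 10 markers lay above all 4 in the knockdown.

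The list of muscle energy enzymes was lower too, with 21 of 31 genes called lower, 0 higher and a median of -1.45. It also holds muscle genes that are not energy enzymes, such as Apobec2 and Smpx. Ckm, the creatine kinase of muscle, was at 200 and 4.44 CPM, myoglobin, Mb, at 212 and 3.49 CPM, and the glycogen phosphorylase Pygm at 109 and 2.22 CPM. Apobec2, a muscle member of the cytidine deaminase family, was at 55.3 and 0.387 CPM. The mitochondrial carrier Slc25a4 was level at 528 and 539 CPM. Of 26 genes of glycolysis and the pentose phosphate branch, 5 were called lower and 1 higher, with a median of -0.61. Gapdh was at 2209 and 1224 CPM, Eno1 at 1844 and 1136 CPM and Pkm at 2836 and 1924 CPM, none of them called, and the hexokinase Hk2 (122 and 34.0 CPM) and the lactate exporter Slc16a3 (129 and 32.3 CPM) were called. In 17 of the 26 the knockdown library lay below all 4 MB libraries, a larger share than the 31.4% of all genes, and in 2 it lay above them. The control library lay below all 4 for 10 of the 26 (34.8% of all genes) and above them for 12 (33.9% of all genes). The gene called higher was Tkt, an enzyme of the pentose phosphate branch, at 38.0 and 103 CPM, against 118 to 151 CPM in MB. The respiratory chain had 0 of 48 genes called, with differences from -0.67 to 0.50 and a median of -0.09, which turns to 0.04 under scaling to total counts.

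Genes that hold cells out of the cycle were partly lower. Of 23, 6 were called lower and 0 higher. Cdkn1a, encoding p21, was at 1719 CPM in the MT control library and 347 CPM in the MT knockdown library (ratio 4.96, interval 4.87 to 5.05), and the MB libraries held 140 to 267 CPM, so the knockdown library remained above them. Cdkn1c, encoding p57, was at 94.2 and 6.28 CPM (ratio 15.003, interval 13.2 to 17.1), against 1.14 to 2.22 CPM in MB. Ccnd3, encoding cyclin D3, was at 284 and 83.2 CPM, inside the MB range of 61.7 to 96.7 CPM, and Rb1 was at 129 and 52.8 CPM, against 29.1 to 48.1 CPM. Cdkn1b, encoding p27, was at 63.3 and 95.1 CPM and was not called. Of 25 p53 targets, 3 were called lower (12%, against 7.05% of all genes), Cdkn1a among them, and 0 higher.

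Genes of DNA replication had left their myoblast level in both MT libraries. Of 40, the control library lay below all 4 MB libraries for 38 and the knockdown library for 40 (34.8% and 31.4% of all genes), and 1 was called lower (E2f2, at 39.7 and 6.33 CPM) and 0 higher. The list summed to 2504 CPM in the MT control, 2069 CPM in the MT knockdown and 4096 to 5084 CPM in the MB libraries. Mcm2, a subunit of the replicative helicase, was at 121 and 75.3 CPM and Pcna, the sliding clamp, at 191 and 154 CPM; neither was called. Genes of mitosis were also below all 4 MB libraries, 41 of 42 in the control and 38 of 42 in the knockdown, with sums of 2981 and 4261 CPM against 6353 to 8574 CPM. Within MT they leaned the other way: 39 of 42 were higher in the knockdown library, 6 were called higher and 0 lower, with a median of 0.52 (0.66 under scaling to total counts, where 12 were called, and 0.48 under DESeq2's size factors, where 4 were). Cdc20, which activates the anaphase ligase, was at 53.8 and 121 CPM, Ccnb2, a mitotic cyclin, at 34.4 and 79.2 CPM, and Pttg1, securin, at 35.5 and 85.9 CPM. Mki67, the proliferation marker, was at 197 and 230 CPM, and Ccnd1, cyclin D1, at 81.5 and 118 CPM; neither was called.

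Interferon-induced genes were high in both MT libraries. Of 65 described, 63 lay above all 4 MB libraries in the MT control library and 63 in the MT knockdown library (33.9% and 33.6% of all genes). Of the 65, 3 were called lower (4.62%, against 7.05% of all genes) and 0 higher, with a median of -0.27. Levels of the 65 summed to 7534 and 5885 CPM, against 1111 to 1522 CPM in MB. Ifit1, an antiviral RNA-binding protein, was at 240 and 152 CPM, where MB libraries held 0.534 to 5.79 CPM, and Ifit3 was at 312 and 188 CPM, although reads could be shared with the near-identical Ifit3b. B2m, the light chain of MHC class I, was at 1283 and 893 CPM. The genes called were Oas2 (42.2 and 9.48 CPM; ratio 4.45, interval 3.98 to 4.99), Oas3 (10.98 and 4.49 CPM) and Gbp4 (3.04 and 0.775 CPM), and Oas2 and Oas3 lose their calls with a smaller prior count.

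Several growth factor and signalling genes were lower in the knockdown library. H19, an imprinted RNA abundant in myotubes, was at 8706 and 2352 CPM, and the linked growth factor gene Igf2 at 1056 and 153 CPM. Neither was called, since the MB libraries ran from 199 to 2741 CPM for H19 and from 2.61 to 108 CPM for Igf2, with replicate 2 above replicate 1 in both groups. Of the 21 genes of the IGF axis and imprinted RNAs, 4 were called lower and 1 higher, with a median of -0.90. They included Igfbp3 (109 and 15.96 CPM) and Igfbp4 (117 and 36.6 CPM), which bind the growth factors. Of 26 genes of TGF beta and myostatin signalling, 7 were called lower and 0 higher. Fst, encoding the activin and myostatin antagonist follistatin, was at 185 and 8.70 CPM (ratio 21.2, interval 19.03 to 23.7), against 0.627 to 9.12 CPM in MB. Of 15 Notch genes, 3 were called lower, among them the ligand Dll1 (69.6 and 12.2 CPM) and the receptor Notch1 (89.1 and 23.0 CPM). Of 29 Wnt genes, 7 were called lower, such as the ligand Wnt10a (87.6 and 19.5 CPM), and 4 higher, such as Lgr4, a receptor for R-spondins, at 41.6 and 125 CPM against 132 to 177 CPM in MB. Of 27 secreted signals, 6 were called lower and 1 higher, led by Fndc5, the precursor of irisin (37.6 and 0.542 CPM), and Il33 (44.4 and 1.76 CPM). Il33 was also lower in both MB knockdown libraries (0.528 and 0.928 CPM) than in the MB controls (7.35 and 8.96 CPM).

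Matrix genes were partly lower, and their list medians ran opposite to those of the MB pairs. Of 21 collagens, 7 were called lower and 1 higher, with a median of -0.65 against 0.68 and 0.50 in the MB pairs. The collagen VI chains Col6a1 (1701 and 698 CPM) and Col6a2 (906 and 283 CPM), microfibril collagens around muscle cells, and the basement membrane chains Col4a1 (933 and 380 CPM) and Col4a2 (713 and 310 CPM) were called lower. Col6a1 was higher in both MB knockdowns (424 and 399 CPM) than in the MB controls (261 and 250 CPM). The main chains of fibres differed less, Col1a1 at 9434 and 6706 CPM and Col1a2 at 9273 and 8609 CPM. Of 51 other matrix genes, 7 were called lower (13.7%, against 7.05% of all genes) and 1 higher, with a median of -0.37. Lama4, a laminin chain, was at 89.9 and 4.78 CPM, and Fbn1, fibrillin, at 1106 and 510 CPM, while fibronectin, Fn1, at 10637 and 7666 CPM, was not called. Lamc1, another laminin chain, was called lower at 321 and 103 CPM. Unlike the medians, it was lower in both MB pairs too, with log2 differences of -0.77 and -0.55.

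Sterol and fatty acid synthesis was the list with the highest median, 0.83 (0.97 under scaling to total counts, 0.79 under DESeq2's size factors), apart from the 5 adipocyte markers. Of 28 genes, 27 were higher in the knockdown library, 7 were called higher and 0 lower. Insig1, a sensor of sterol feedback, was at 47.7 and 157 CPM, Idi1, an isomerase of the mevalonate branch, at 34.98 and 103 CPM, and Nsdhl, which trims sterol rings, at 38.6 and 108 CPM. For 21 of the 28 the control library lay below all 4 MB libraries, against 34.8% of all genes, and for 4 the knockdown library did, against 31.4% of all genes. The sums were 3971 and 6145 CPM in MT, and 5180, 9537, 3968 and 9596 CPM in MB control replicates 1 and 2 and MB knockdown replicates 1 and 2, so the MB replicates differed by more than the MT libraries. Ribosomal protein genes had 0 of 55 called and 50 above 0, with a median of 0.18.

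The 15 genes with the highest log2 differences were Serpina1d, Kank4, Tnmd, Adam22, Cnn1, Aoc3, Dhrs3, Adgrf5, Tgm5, Gsta4, Platr3, Cntn3, Cd1d1, Sema3f and Mep1a. All but Tnmd and Dhrs3 were also higher in the knockdown in both MB pairs. Serpina1d, a liver protease inhibitor of a family of near-identical copies and therefore uncertain, had 7 counts (0.145 CPM) in the MT control library and 462 counts (11.9 CPM) in the knockdown library (ratio 82.6, interval 39.7 to 206). The MB controls held 0.0726 and 0 CPM and the MB knockdowns 1.58 and 3.34 CPM. Kank4, a cytoskeletal adaptor, was at 4 and 264 counts, with 0.0242 and 0.0252 CPM in the MB controls and 0.950 and 19.6 CPM in the MB knockdowns. Gsta4, a glutathione transferase that clears lipid peroxidation products, was at 40.3 and 280 CPM (ratio 6.95, interval 6.62 to 7.30), against 122 and 82.7 CPM in the MB controls and 405 and 290 CPM in the MB knockdowns. Adam22, at 3.06 and 39.5 CPM, Adgrf5, at 2.73 and 20.9 CPM, and Sema3f, at 3.01 and 19.1 CPM, had the same order in MB. Tnmd, the tendon protein tenomodulin, at 0.165 and 5.99 CPM, and Dhrs3, a retinal reductase, at 10.6 and 87.4 CPM, differed from this: in both, 1 MB pair was higher in the knockdown and 1 lower. For Tnmd the lower pair was replicate 1, with 0.0726 CPM in the control and 0.0422 CPM in the knockdown, each at 3 counts or fewer. That pair cannot give a direction, and in replicate 2 Tnmd was at 0.353 and 1.28 CPM. With the range of the 4 MB libraries as the yardstick, which holds the knockdown effect of MB as well, Serpina1d, Kank4, Cnn1, Adgrf5, Tgm5, Sema3f and Mep1a are not called.

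Cnn1, calponin of smooth muscle, was at 5.29 and 53.4 CPM (ratio 10.1, interval 8.87 to 11.6), against 37.8 and 5.25 CPM in the MB controls and 87.2 and 10.998 CPM in the MB knockdowns. It belongs to the 14 genes of the smooth muscle cytoskeleton, of which 2 were called higher and 2 lower, with a median of 0.53 against 0.71 and 0.47 in the MB pairs. Tagln, transgelin, was at 288 and 716 CPM and was not called, since MB libraries ran from 85.1 to 928 CPM. Acta2, smooth muscle actin, was at 5265 and 4386 CPM. The list summed to 8259 and 8380 CPM in MT. Among 29 immediate early genes, 3 were called higher (Zfp36, which degrades AU-rich messengers, at 11.6 and 45.7 CPM, Fos at 12.8 and 42.0 CPM, and Ier2 at 27.6 and 68.2 CPM) and 5 lower, among them Fosl2 at 154 and 53.02 CPM. Fos is not called under DESeq2's size factors.

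Few genes tied to KAP1 itself or to general cell functions were called, unlike the ubiquitin ligases and chaperones of muscle. Of 40 KAP1 partners and myogenic cofactors, 1 was called lower, Hdac4, a deacetylase that binds Mef2, at 25.005 and 12.2 CPM (not called under scaling to total counts), and 0 were called higher. The lowest log2 difference among them, -1.92, was that of the related deacetylase Hdac9, at 2.27 and 0.568 CPM, which was not called. The unfolded protein and ATF4 response had 0 of 27 called. Of 18 housekeeping genes 1 was called, Tfrc, the transferrin receptor, at 207 and 75.6 CPM, and the median was -0.005 (0.13 under scaling to total counts). Of 19 muscle ubiquitin ligases and chaperones, 10 were called lower and 1 higher, including Trim63, the ligase MuRF1, at 25.4 and 6.87 CPM and Trim72, a membrane repair protein, at 116 and 2.20 CPM. Fbxo32, atrogin-1, at 42.2 and 51.8 CPM, was not called.

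Markers of other cell types were checked in both MT libraries. The myoblast markers had 4 of 8 called lower (Myod1, Chrna1, Itga7 and Ncam1) and Myf5 called higher. Adipocyte markers had 5 of 14 described and 0 called, summing to 22.4 and 43.4 CPM (39.8 to 72.8 CPM in MB), and Adipoq, Plin1 and Lep did not pass the count filter. Osteoblast and chondrocyte markers had 13 of 18 described and 0 called, summing to 84.8 and 98.4 CPM. Endothelial markers summed to 4.11 and 5.35 CPM and immune markers to 4.83 and 5.97 CPM, with Cdh5, Kdr and Ptprc below the filter. Of the immune list, Lyz2 was called higher, at 0.206 and 3.05 CPM, and Itgam lower, at 1.42 and 0.0517 CPM. Neuronal markers had 9 of 14 described, 2 called higher and 1 lower, and summed to 86.9 and 246 CPM, 192 CPM of the latter from Stmn2, which also ran from 49.5 to 319 CPM in MB and was not called. The part of such cells in the results was not tested.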

How the data were processed

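The authors deposited whole-number read counts per Ensembl gene for 6 libraries. They name TopHat2 2.0.11, HTSeq and the mm9 build as the tools and genome behind these counts, per the submitters' processing notes. Annotation release and strand setting: not given in the sources used here, so overlapping and antisense genes are uncertain. Lines naming no gene were left out (reads in no gene: 8.07% in the MT control and 7.89% in the MT knockdown library). Symbols came from a GRCm38 annotation by Ensembl identifier, for 32919 of 37991 genes, which held 99.0% of counts. The members and gene lists were chosen with earlier results of these data known.

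From the deposited counts, edgeR 4.0.16 in R 4.3.3 gave TMM-scaled CPM and log2 differences with a prior count of 2, which shrinks the differences of low genes. filterByExpr by group kept 16472 genes, 15619 with a symbol. CPM are not divided by gene length and were compared only within a gene or as sums over one list. The edgeR quasi-likelihood fit (robust) and DESeq2 1.42.0 used a mean per group and a Benjamini-Hochberg threshold of 0.05, and the lone MT libraries are assumed there to vary as the MB libraries do. The call rule and the edgeR fit without a block were tried on simulated data. The simulation held no effect of replicate number or file mark, so it cannot tell how either performs with one. Ratios of counts carry exact conditional binomial intervals; depth ran from 36247530 to 49839994 counts.

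Named genes were Trim28; the 15 lowest and 15 highest log2 differences among called genes with at least 5 CPM in 1 MT library, predicted genes and pseudogenes left out; in each list up to 6 members with the largest and 3 (at 20 CPM or more) with the smallest differences; the myotube and myoblast markers; and 14 fixed myogenic and cell cycle genes. Other members named for their role, or because a count was small, were chosen after their values were seen. Alternatives covered scaling, filter, prior count, threshold, yardstick, tool, block and left-out MB libraries.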

Additional observations from a re-analysis of the deposited data

Results flagged for a closer look

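Of 34 gene lists with at least 10 genes described, 11 had a median in MT opposite in sign to that in both MB pairs, and in 4 of them all 3 medians were larger than 0.1 in size. The difference between the stages was not tested for these lists. The median log2 difference, knockdown minus control, of the 42 mitosis genes was 0.52 in MT and -0.37 and -0.11 in the MB pairs of replicates 1 and 2. For the 21 collagens, which include Col4a1 and collagen VI chains beside the fibrillar ones, it was -0.65 in MT and 0.68 and 0.50 in MB. For the 51 other matrix genes it was -0.37 in MT and 0.29 and 0.23 in MB. For the 21 genes of the IGF axis and imprinted RNAs it was -0.90 in MT and 0.15 and 0.15 in MB. Across all genes, the edgeR interaction of stage and knockdown put 0 genes past an adjusted p of 0.05 (smallest adjusted p = 0.848), and DESeq2 put 166 past it.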

How the results depend on the processing

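The counts of 1162 lower and 748 higher genes stayed within 1.5 times under scaling to total counts (999 and 986), DESeq2's size factors (1226 and 693), the other prior counts, 2-fold alone (1426 and 1033) and the added yardstick of the MB range (1061 and 575). They moved further when only genes averaging 1 CPM or more were kept (732 and 373), a 4-fold threshold (527 and 174) and a counting interval wholly beyond 2-fold (771 and 327), and the higher genes also without the filter on low counts (1260). Leaving out 1 MB library at a time gave 1221 to 1239 lower and 795 to 854 higher genes. Of 147 named genes with a call, 141 to 147 kept it under these alternatives, apart from the 4-fold threshold (93) and the MB range (133), and none reversed.

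The edgeR fit gave 0 genes for the MT comparison and 0 for the interaction also without each MB library, without the filter and with DESeq2's size factors. DESeq2 gave 368 and 166. With the replicate number as a replicate block, MT libraries put with the replicate of the same file mark, edgeR gave 3344 and 1722, with 1 residual degree of freedom in place of 2 and a biological coefficient of variation of 9.74% in place of 32.9%. The block fit shared 1298 of its genes with the 1910 described calls (68.0% of these, 38.8% of its own). The labels do not say that the numbers pair the samples; across 16472 genes the replicate differences of the 2 MB groups correlated with r = 0.76. Depth limits genes near 3 counts, 0.0619 and 0.0775 CPM in the MT control and knockdown libraries, and no MT library has a replicate.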
